A study of Homo sapiens with 2 samples.

Results

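The genes described here were 40 genes of the ATF4 branch of the integrated stress response and of amino acid supply, followed in C4-2B cells with and without the ACK1 kinase inhibitor (R)-9b. They were chosen by name, with no threshold on their values, though earlier results of these data were known, and fall into 8 transcription factors, 7 stress effectors, 10 amino acid synthesis enzymes, 5 one-carbon enzymes, 9 amino acid transporters and 1 tRNA exporter. All 40 were found among the 60671 genes of the deposited count table, and all reached a sum of 10 counts, as did 23446 genes in all. C4-2B is a human cell line, a bone-metastatic subline of the prostate cancer line LNCaP, grown in medium with 10% fetal bovine serum. RNA sequencing was performed on 1 library from cells given vehicle and 1 library from cells given 1 µM (R)-9b overnight. With 1 library per condition there was no measure of replicate spread, so no difference below carries a test and each one compares these libraries rather than the treatments.

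The integrated stress response begins when kinases that sense unfolded protein, amino acid shortage, double-stranded RNA or mitochondrial and haem stress phosphorylate the translation initiation factor eIF2. General translation then slows, while the mRNA of ATF4 is translated more, because short upstream reading frames otherwise divert ribosomes from it. ATF4 pairs with C/EBP family proteins and binds C/EBP-ATF response elements, through which it switches on genes for amino acid import, amino acid synthesis, mitochondrial one-carbon metabolism and tRNA charging, together with a second tier of factors such as DDIT3 and ATF3. Tumour cells use the same programme to keep protein synthesis supplied, and the programme was read here only as mRNA, so neither eIF2 phosphorylation nor ATF4 protein was measured.

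Most of these genes were lower in the (R)-9b library. Their summed level was 12898 in vehicle and 5704 in (R)-9b as normalised CPM (counts scaled to library size), a log2 ratio of -1.18 for (R)-9b over vehicle, and they took 1.32% of all counts in vehicle and 0.559% in (R)-9b. The median log2 ratio of the 40 genes was -1.24, with a range from -5.82 for LAMP3 to 0.55 for CBS, whereas the median over all 23446 genes was -0.00. An exact (Clopper-Pearson) 95% interval, covering counting error only, was set around every ratio. The whole interval lay below a log2 ratio of 0 for 37 of the 40 genes, against 31.1% of all genes, and above 0 for 3 genes (ALDH18A1, CBS and SHMT1), against 29.8% of all genes. It lay wholly beyond a 2-fold decrease for 25 of the 40 genes, against 3.44% of all genes, and beyond a 2-fold increase for none, against 4.2% of all genes. Among the 11862 genes whose counts reached 500 in total, a limit that every one of the 40 passed, the shares were 2.73% lower and 2.43% higher. In bulk RNA, fewer cells that express a gene and less RNA per cell cannot be told apart.

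**Figure D1:**
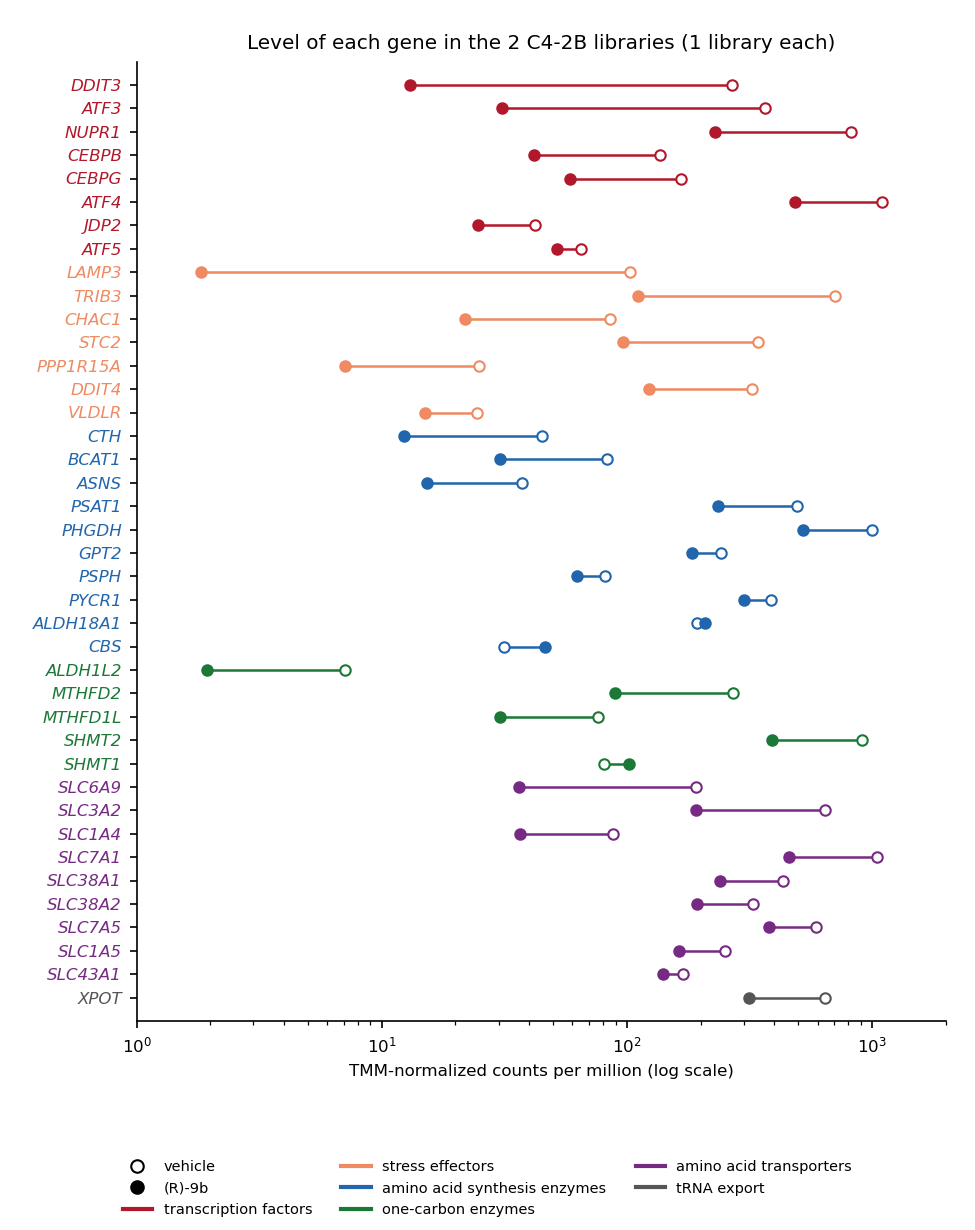
Level of each of the 40 genes in the vehicle library (open circles) and the (R)-9b library (filled circles), in TMM-normalised CPM on a log axis, with 1 library per condition and therefore no error bars. Genes are grouped by role and ordered by ratio within each group, and the filled circle lies to the left of the open one for 37 genes and to its right for ALDH18A1, CBS and SHMT1.

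The libraries held 65207444 counts (vehicle) and 57653965 counts ((R)-9b), and a count of 3 stood for 0.0451 and 0.0531 CPM, so every gene discussed as a member was far above the floor in both. Among genes with 1 to 20 counts, 72.2% of the values in vehicle and 70.3% in (R)-9b were even numbers, so both reads of a pair may have been counted, and with all counts halved 24 genes remained lower beyond 2-fold. The GEO label calls the cells breast cancer, whereas the published methods use C4-2B as a prostate line. All 8 prostate epithelial markers were present, KLK3 with 146597 counts in vehicle and 297728 in (R)-9b, while the breast markers SCGB2A2 and ANKRD30A had 0 counts in both libraries and ESR1 had 2 in each. The other breast markers were PGR (10 and 2 counts), PIP (124 and 595) and TRPS1 (906 and 516). The summed prostate markers were 4833 CPM (vehicle) and 9804 CPM ((R)-9b). Of these 8 markers, 4 were higher beyond 2-fold, against 4.2% of all genes, and 0 lower, against 3.44%. Immune markers summed to 0.285 and 0.584 CPM, with PTPRC at 0 counts in both libraries, and stromal and endothelial markers to 28.4 and 43.1 CPM, mostly from COL1A1 (1114 and 2004 counts) and VWF (769 and 411 counts). Breast markers summed to 15.7 and 19.7 CPM. Mitochondrially encoded genes took 1.49% of counts in vehicle and 9.54% in (R)-9b, and scaling without them shifted every ratio by 0.0005 on the log2 scale and left the count of 25 as it was. The part of the prostate markers in the result was not tested.

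ATF4 and its partners act through a C/EBP-ATF element, searched for here as TGATGNAA on either strand, from 250 bases before to 50 bases after each RefSeq start of transcription (assembly GRCh38.p14). The RefSeq table matched 33 of the 40 genes with 61 promoters. ALDH1L2, PYCR1, PSPH, GPT2, NUPR1, SHMT2 and LAMP3 were not matched. The element was present in 14 of the 61 promoters (23.0%), belonging to 12 of the 33 genes (36.4%), whereas it was present in 3.62% of all 35116 promoters and in 4.46% of all 27305 genes of the table. With C at the free position, as in the best known form of the element, it was present in 9 of the 61 promoters (14.8%) and in 0.866% of all promoters. By gene, that form was present in 7 of the 33 genes (21.2%) and in 1.08% of all genes of the table. The promoter counts of 14 and 9 each include 1 element of MTHFD1L 3 times. Because the genes were chosen as genes of the ATF4 branch, a higher share could come from that choice alone. The matches are letters in a window and not measured binding. They are printed below with 10 bases on either side where the window allows, read 5′ to 3′ on the strand where the element reads TGATGNAA, with the element in capitals, since they are the sequence that these genes share apart from the measurements.

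Transcription factors with the element were ATF3, CEBPG and JDP2.
ATF3 (chr1:212565206-212565233, plus strand): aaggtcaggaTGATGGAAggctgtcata
CEBPG (chr19:33374061-33374088, plus strand): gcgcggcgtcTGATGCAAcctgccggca
JDP2 (chr14:75427996-75428023, plus strand): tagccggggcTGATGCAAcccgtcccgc
Among the effectors and the enzymes it was found in CHAC1, ASNS, BCAT1 and MTHFD1L.
CHAC1 (chr15:40953252-40953279, minus strand): ctggcaggagTGATGCAAcggcagggga
ASNS (chr7:97872459-97872486, minus strand): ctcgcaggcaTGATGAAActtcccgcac
BCAT1 (chr12:24949132-24949159, minus strand): gtcttcctgcTGATGCAAtccgctaggt
MTHFD1L (chr6:150866347-150866374, plus strand): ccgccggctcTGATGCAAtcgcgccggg
Of the 9 transporters, 5 held the element, namely SLC1A4, SLC1A5, SLC38A1, SLC3A2 and SLC7A1.
SLC1A4 (chr2:64989382-64989409, minus strand): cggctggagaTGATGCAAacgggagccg
SLC1A5 (chr19:46784894-46784921, minus strand): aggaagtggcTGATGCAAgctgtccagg
SLC38A1 (chr12:46266503-46266530, minus strand): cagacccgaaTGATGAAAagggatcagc
SLC3A2 (chr11:62881726-62881748, minus strand): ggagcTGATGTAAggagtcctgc
SLC7A1 (chr13:29595664-29595691, minus strand): ggcgcactgcTGATGAAAcctggcgccg
Of the 12 windows, 7 had C at the free position and 3 had A. In CHAC1, SLC1A4 and SLC3A2 the element lay on the strand opposite to the gene. The window of SLC3A2 was cut by the end of the promoter sequence.

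Distance from the start of transcription varied. The first base of the element was at -209 in CHAC1, -191 in ATF3, -97 in SLC1A5, -68 in ASNS, -48 in BCAT1, -42 in CEBPG and -16 in JDP2, counted from the RefSeq start, and it touched or followed the start in SLC1A4, SLC38A1, SLC7A1 and SLC3A2. MTHFD1L has 4 RefSeq starts, of which 3 share 1 element. A gene can have several starts, and the start beside the element was not always that of the transcript with the most estimated counts in these libraries. It lay within 100 bases of that start in 4 genes, ASNS (63 bases), BCAT1 (58 bases), CHAC1 (33 bases) and SLC1A4 (2 bases). In the other 8 genes it was farther away, by 43263 bases in ATF3 and by 783 bases in CEBPG. For SLC7A1, SLC38A1 and SLC3A2 the leading transcript came from estimates that sum to 10% or less of the gene count in vehicle, so it does not show where most reads of these genes start. The 250 bases before the start are given in full for ASNS, BCAT1 and CHAC1, where the element lies wholly upstream and beside the start of the leading transcript. They are printed on the strand of the gene with the element in capitals, so in CHAC1 the capitals read as the reverse complement of the element.
ASNS (chr7:97872409-97872658, minus strand): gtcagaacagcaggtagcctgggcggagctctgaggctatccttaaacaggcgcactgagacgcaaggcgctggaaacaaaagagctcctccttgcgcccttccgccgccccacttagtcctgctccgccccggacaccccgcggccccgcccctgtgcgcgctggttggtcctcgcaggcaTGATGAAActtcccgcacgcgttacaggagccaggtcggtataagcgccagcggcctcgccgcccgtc
BCAT1 (chr12:24949102-24949351, minus strand): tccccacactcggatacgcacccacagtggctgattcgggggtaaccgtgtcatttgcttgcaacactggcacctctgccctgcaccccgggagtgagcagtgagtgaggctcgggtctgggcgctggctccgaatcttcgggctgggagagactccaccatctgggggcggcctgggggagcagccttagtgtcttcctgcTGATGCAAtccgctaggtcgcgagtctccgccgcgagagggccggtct
CHAC1 (chr15:40953221-40953470, plus strand): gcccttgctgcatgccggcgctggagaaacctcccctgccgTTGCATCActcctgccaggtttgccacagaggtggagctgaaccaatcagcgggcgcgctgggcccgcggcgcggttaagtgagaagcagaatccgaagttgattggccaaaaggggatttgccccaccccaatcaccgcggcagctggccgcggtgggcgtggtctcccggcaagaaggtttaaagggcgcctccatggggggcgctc

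**Figure D2:**
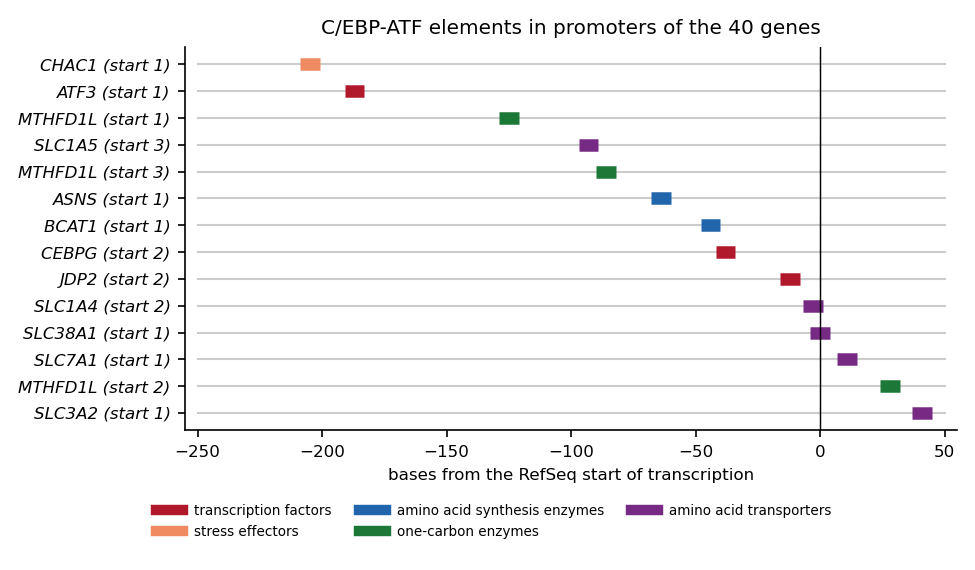
Position of the C/EBP-ATF element (coloured box) in the 14 promoters that held it, as bases from the RefSeq start of transcription (vertical line), each grey line being a promoter of 250 bases before and 50 bases after the start and each colour a role. Positions run from -209 in CHAC1 to 38 in SLC3A2, and MTHFD1L appears 3 times because 3 of its 4 starts share 1 element.

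Among the 8 transcription factors, the intervals of all 8 lay below 0 and those of 6 beyond a 2-fold decrease. The class median was a log2 ratio of -1.61, and its summed level was 2962 CPM (vehicle) and 936 CPM ((R)-9b). ATF4 (chr22:39519695-39522685 in GRCh38), the factor at the head of the programme, had 73113 counts in vehicle and 27486 in (R)-9b, or 1098 and 487 CPM. Its log2 ratio was -1.17 (95% interval -1.19 to -1.15), a 2.26-fold lower level. Of the second tier, DDIT3 and ATF3 differed more than ATF4. DDIT3 (chr12:57516588-57521737), also called CHOP, a C/EBP family member that acts in prolonged endoplasmic reticulum stress, had 17941 counts in vehicle and 737 in (R)-9b, and its log2 ratio was -4.37 (-4.48 to -4.26), a 20.6-fold lower level. ATF3, a bZIP factor induced by many stresses, had 24273 and 1754 counts, with a log2 ratio of -3.55 (-3.62 to -3.48). Of all genes, 0.891% had a lower ratio than DDIT3 and 1.08% a lower ratio than ATF3. DDIT3 shares 39.6% of its exon bases with other annotated genes, and reads that overlapped several genes were not counted.

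C/EBP partners of ATF4 and small nuclear regulators took a middle place. NUPR1, a small stress-induced chromatin protein, had 54608 counts in vehicle and 12912 in (R)-9b, a log2 ratio of -1.84. CEBPB, which dimerises with ATF4, had 9106 and 2351 counts, a log2 ratio of -1.72, and CEBPG, another partner, had 11035 and 3313 counts, a log2 ratio of -1.50. The smallest differences in the class were in JDP2, a repressor related to ATF3, and ATF5, a factor whose translation is controlled like that of ATF4. JDP2 had 2803 and 1398 counts (log2 ratio -0.77) and ATF5 had 4341 and 2920 counts (-0.33). ATF5 shares 23.7% of its exon bases with other genes. The interval of neither ATF5 nor JDP2 lay beyond 2-fold.

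The stress effectors, the downstream proteins that slow growth, feed back on the response or promote cell death, had the lowest median of the classes, -1.83, and 6 of 7 were lower beyond 2-fold. Their summed level was 1612 CPM (vehicle) and 377 CPM ((R)-9b). LAMP3, a lysosomal membrane protein induced by unfolded protein stress, had 6885 counts in vehicle and 103 in (R)-9b, or 103 and 1.82 CPM. Its log2 ratio of -5.82 (-6.12 to -5.54), a 56.7-fold lower level, was the lowest of the 40 genes, and 0.725% of all genes had a lower one. TRIB3, a pseudokinase that inhibits ATF4 and AKT, had 46870 and 6284 counts, with a log2 ratio of -2.66 (-2.70 to -2.62). CHAC1, which degrades glutathione and carries the element printed above, had 5660 and 1238 counts and a 3.88-fold lower level in (R)-9b. STC2, a secreted glycoprotein, had 22938 and 5453 counts and a 3.57-fold lower level.

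PPP1R15A, also called GADD34, recruits the phosphatase that removes the phosphate from eIF2 and so closes the feedback loop. It had 1662 counts in vehicle and 401 in (R)-9b, a log2 ratio of -1.81 (-1.97 to -1.66). DDIT4, an inhibitor of mTORC1 also called REDD1, had 21677 and 6956 counts (log2 ratio -1.40). DDIT4 shares 41.2% of its exon bases with its annotated antisense gene, and the strand setting of the counting is not given in the sources used here. VLDLR, a lipoprotein receptor, was the effector nearest to 0, with 1632 and 845 counts (log2 ratio -0.71, -0.83 to -0.59), and the only one whose interval was not wholly beyond 2-fold.

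**Figure D3:**
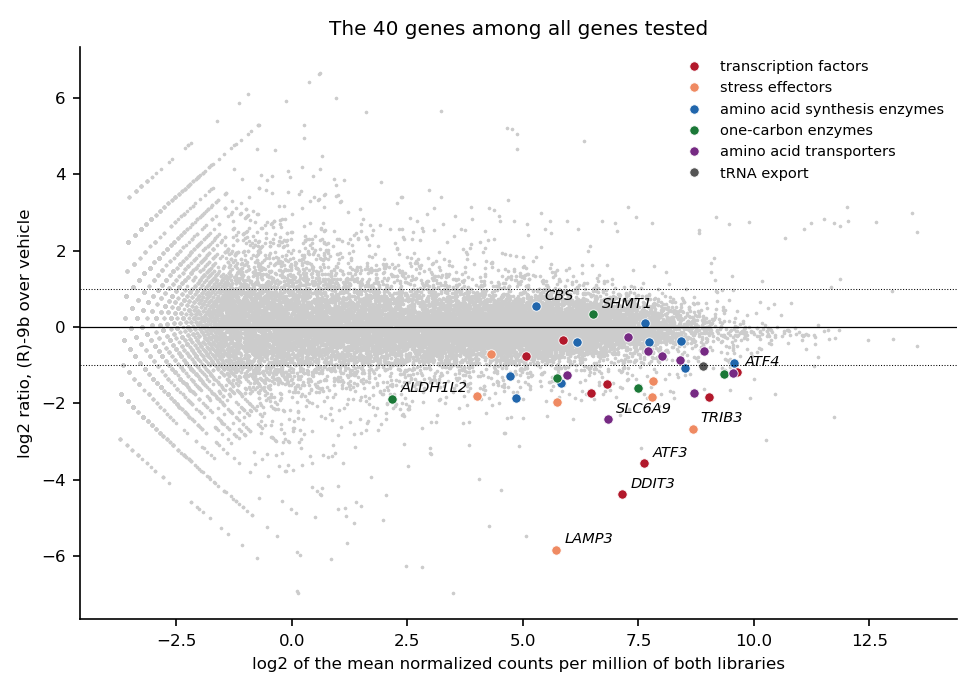
Log2 ratio of (R)-9b over vehicle against the log2 mean level of both libraries for the 23446 genes whose counts reached 10 in total (grey) and for the 40 genes coloured by role, with dotted lines at 2-fold and 1 library per condition. LAMP3 (-5.82), DDIT3 (-4.37) and ATF3 (-3.55) are the lowest of the coloured points, and CBS (0.55) and SHMT1 (0.34) above 0.

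The 10 amino acid synthesis enzymes varied, also within a pathway. Their median log2 ratio was -0.66, 4 were lower beyond 2-fold, 8 intervals lay below 0 and 2 above, and the summed level was 2596 CPM (vehicle) and 1620 CPM ((R)-9b). Serine is made from a glycolytic intermediate by PHGDH, PSAT1 and PSPH in turn. PHGDH, the first enzyme, had 66623 counts in vehicle and 29589 in (R)-9b, a log2 ratio of -0.93 (-0.95 to -0.91) that ended just inside 2-fold. PSAT1, the next, had 32839 and 13246 counts, a log2 ratio of -1.07 (-1.10 to -1.04). PSPH, the last, had 5432 and 3548 counts, a log2 ratio of -0.38, so the enzymes of this short pathway differed from each other by more than their counting intervals. Proline is made through ALDH18A1 and PYCR1. ALDH18A1, which makes the glutamate semialdehyde, had 12873 and 11791 counts, a log2 ratio of 0.11 (0.075 to 0.147). PYCR1, the mitochondrial enzyme of the last step, had 25842 and 17018 counts, a log2 ratio of -0.36, and shares 29.7% of its exon bases with other genes.

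Asparagine synthetase, ASNS, is the classic amino acid response gene and carries the element beside its start. It had 2485 counts in vehicle and 862 in (R)-9b, a log2 ratio of -1.29 (-1.40 to -1.18). ASNS shares 44.6% of its exon bases with an annotated overlapping gene, AC079781.5, and the deposited transcript estimates for it summed to 454% of the gene count in vehicle. The part of the overlap in this gap was not tested. On those estimates its log2 ratio was -1.55. BCAT1, the cytosolic transaminase of branched-chain amino acids, had 5546 and 1710 counts, a 2.75-fold lower level, and also carries the element beside its start. GPT2, the mitochondrial alanine transaminase, had 16104 and 10409 counts, a log2 ratio of -0.39.

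On gene counts, the enzymes of transsulphuration, which turn homocysteine into cysteine, lay at opposite ends of the class. CTH, which releases cysteine from cystathionine, had 3002 counts in vehicle and 698 in (R)-9b, a log2 ratio of -1.87 (-1.99 to -1.75). CBS, which makes cystathionine, had 2110 and 2623 counts, a log2 ratio of 0.55 (0.47 to 0.64) and a 1.47-fold higher level. The counts of CBS came from uniquely aligned reads, and the table also lists CBSL, a near-identical copy, with 56 and 110 counts, so the gene count of CBS is uncertain. Transcript estimates of CBS summed to 7705 in vehicle and 6796 in (R)-9b, and on them its log2 ratio was 0.07. The coding transcript CBS-204 had 5725 estimated counts in vehicle and 2999 in (R)-9b, and CBS-202, also coding, had 566 and 616. CBS-209, annotated as a retained intron, had 413 and 2160. The higher gene count of CBS therefore does not show a higher level of its coding mRNA. The direction of CTH was the same on gene counts and on estimates, with -1.81 on the estimates.

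The mitochondrial and cytosolic one-carbon enzymes lay on opposite sides of 0. The median log2 ratio of the 5 genes was -1.32, their summed level was 1348 CPM (vehicle) and 617 CPM ((R)-9b), and the 4 mitochondrial enzymes were all lower beyond 2-fold. SHMT2, which splits serine into glycine and a one-carbon unit in mitochondria, had 60771 and 22161 counts, a log2 ratio of -1.22 (-1.24 to -1.20). MTHFD2, which oxidises the folate-bound unit, had 18037 and 5065 counts, a log2 ratio of -1.59 (-1.64 to -1.55). It shares 33.2% of its exon bases with other genes. MTHFD1L, which releases the unit as formate and holds the printed element at 3 of its 4 RefSeq starts, had 5088 and 1723 counts (-1.32). ALDH1L2, which burns the unit to carbon dioxide, had the lowest level per kilobase of exon of the 40 genes in both libraries, with 471 and 109 counts, a log2 ratio of -1.87 (-2.19 to -1.57). By contrast SHMT1, the cytosolic counterpart of SHMT2, had 5396 and 5783 counts, a log2 ratio of 0.34 (0.28 to 0.39).

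All 9 amino acid transporters had intervals below 0, and 4 were lower beyond 2-fold. Their median log2 ratio was -0.85 and their summed level 3737 CPM (vehicle) and 1838 CPM ((R)-9b). SLC6A9, a glycine transporter, was the lowest, with 12796 counts in vehicle and 2048 in (R)-9b, a log2 ratio of -2.41 (-2.47 to -2.34). SLC3A2 and SLC7A5 are the heavy and light chains of the LAT1 exchanger of large neutral amino acids, and on gene counts they differed from each other. SLC3A2 had 42642 and 10862 counts, a log2 ratio of -1.74 (-1.77 to -1.71), whereas SLC7A5 had 39239 and 21379 counts, a log2 ratio of -0.64 (-0.66 to -0.61). On transcript estimates SLC3A2 was at -0.69, from sums of 4252 and 2214, which are 9.97% and 20.4% of its gene counts. SLC7A5 lay between -0.70 and -0.60 under all alternatives, so the difference between the chains rests on gene counts. Since SLC3A2 also serves other light chains, its mRNA is not a measure of LAT1 alone.

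SLC7A1, an arginine and lysine transporter, was the most abundant transporter by counts, with 69601 in vehicle and 25796 in (R)-9b, a log2 ratio of -1.19. SLC1A4, an exchanger of alanine, serine and cysteine, had 5871 and 2072 counts, a log2 ratio of -1.26. SLC1A5, the glutamine exchanger of the same family, had 16767 and 9220 counts, a log2 ratio of -0.62. It shares 23.8% of its exon bases with other genes. The sodium-coupled glutamine and alanine carriers SLC38A1 and SLC38A2 had log2 ratios of -0.85 (28894 and 13589 counts) and -0.76 (21740 and 10902 counts). SLC43A1, a facilitator of leucine uptake that is abundant in prostate, was nearest to 0, with 11248 and 7919 counts, a log2 ratio of -0.27. The 5 transporters with a printed element had log2 ratios between -1.74 and -0.62, and SLC6A9, with the lowest ratio, had no element in the window searched. XPOT, which carries tRNA out of the nucleus, had 42807 and 17784 counts, a log2 ratio of -1.03 with an interval that ended just beyond 2-fold, and was the only one of the 25 to lose its place beyond 2-fold when counts were scaled by upper quartile or halved.

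Ordered by level per length, in normalised CPM per kilobase of annotated exon, ATF4 was the highest of the 40 genes in both libraries, at 437 in vehicle and 194 in (R)-9b, followed by PSAT1 at 225 and 107. Below them the order differed between the libraries. DDIT3 was at rank 3 in vehicle with 206 and at rank 27 in (R)-9b with 9.99. TRIB3 was at rank 4 with 205 and at rank 15 with 32.4, and ATF3 at rank 13 with 90.2 and at rank 28 with 7.69. In the (R)-9b library the places behind PSAT1 were taken by PYCR1 (104), SHMT2 (81.1) and SLC7A5 (79.8). SHMT2 was already at rank 5 in vehicle, and the stress effector DDIT4 was at rank 6 in both libraries (158 and 59.9). ALDH18A1, close to equal between libraries, was at rank 19 in vehicle and rank 9 in (R)-9b. With 1 library each, the spread between neighbours in this order is unknown. The length took in every annotated exon of a gene, and reads that overlapped several genes were not counted. The order therefore also depends on the annotation, for example for DDIT3, DDIT4 and PYCR1. They share 39.6%, 41.2% and 29.7% of their exon bases with other genes.

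The rest of the pathway was read from lists of related genes, written with earlier results of these data known. The kinases, eIF2 and eIF2B subunits and phosphatase cofactors that control translation of ATF4 had a median log2 ratio of -0.22 over 18 genes, with 12 intervals below 0, 6 above and none beyond 2-fold in either direction, where all genes had 31.1% below 0, 29.8% above, 3.44% lower beyond 2-fold and 4.2% higher. Farthest from 0 were DNAJC3, a chaperone that inhibits eIF2 kinases, at -0.90 (12709 and 5765 counts), PPP1R15B, the constitutive phosphatase cofactor, at -0.75 (7603 and 3837 counts), and EIF2AK4, the amino acid sensing kinase GCN2, at 0.69 (8029 and 10971 counts). Another 16 known targets of ATF4 or DDIT3 had a median of -1.72, with all 16 intervals below 0 and 14 beyond a 2-fold decrease, against the 3.44% of all genes. FGF21, a secreted metabolic hormone, had 520 and 21 counts, a log2 ratio of -4.39 (-5.10 to -3.76). GDF15, a stress cytokine, had 144034 and 15651 counts, a log2 ratio of -2.96, and NIBAN1, a regulator of eIF2 signalling, had 22583 and 2147 counts, a log2 ratio of -3.16.

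The lists of other metabolic genes had medians from -0.19 to 0.16, where the median over all genes was -0.00. The median log2 ratio was 0.06 over 13 other amino acid synthesis enzymes. Of their intervals, 3 lay below 0 and 7 above, with 1 lower and 1 higher beyond 2-fold. Over 10 other one-carbon genes the median was -0.19, with 6 intervals below 0, 2 above and 1 lower beyond 2-fold. Over 15 other amino acid transporters it was 0.16, with 4 intervals below 0, 6 above and 1 higher beyond 2-fold. Of all genes, 31.1% had intervals below 0, 29.8% above, 3.44% lower beyond 2-fold and 4.2% higher. The enzymes farthest from 0 were GPT, the cytosolic alanine transaminase, at 1.34 (683 and 1464 counts), GOT1, the cytosolic aspartate transaminase, at -1.04 (16718 and 6884 counts), and GLUL, glutamine synthetase, at 0.58 (13047 and 16516 counts). Among one-carbon genes, GLDC of the glycine cleavage system was at -1.80 (311 and 76 counts) and MTFMT, which formylates the mitochondrial initiator tRNA, was at 0.58 (1252 and 1583 counts). Among transporters they were SLC43A2 at 1.17 (4411 and 8407 counts), SLC1A2 at 1.27 (46 and 94 counts) and SLC38A7 at -0.60 (3683 and 2054 counts). The lists for the 40 genes hold enzymes and carriers chosen as genes of the ATF4 branch, and these lists hold other genes of the same pathways. SLC7A11, a further amino acid transporter, was placed among the 16 targets, at -1.67 (11132 and 2966 counts). The median of 0.16 for the other transporters therefore leaves it out. The difference between the medians, and the part of this sorting in it, was not tested.

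**Figure D4:**
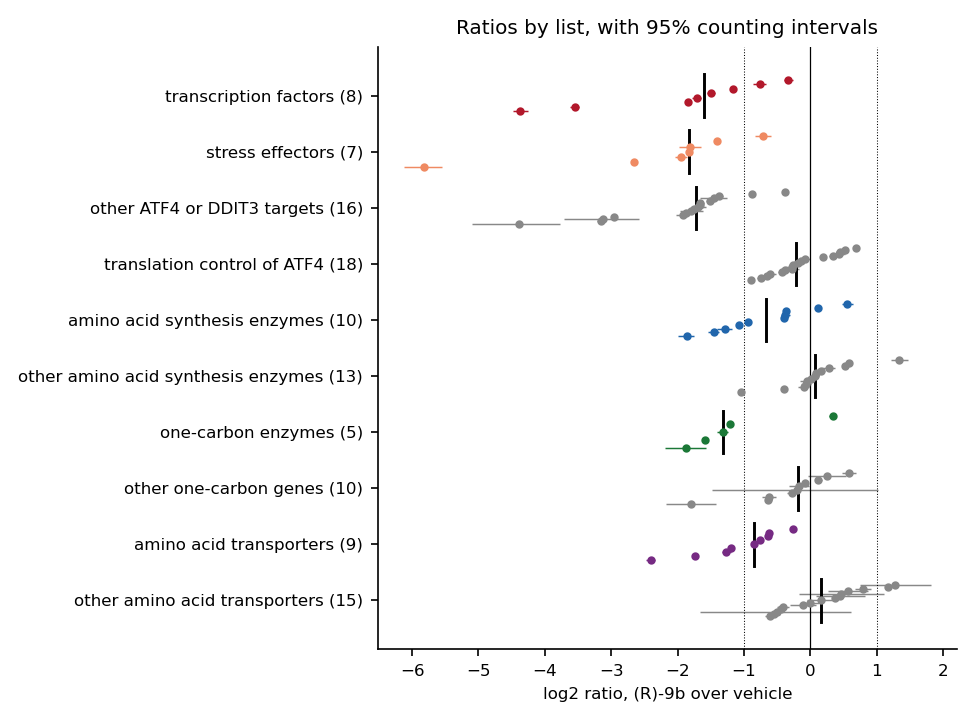
Log2 ratio of (R)-9b over vehicle for each gene (points, with horizontal lines for the exact 95% counting interval) in the 5 classes of the 40 genes with several members (coloured) and in the 5 lists of related genes (grey), with the number of genes in parentheses, black bars at the medians and dotted lines at 2-fold. The medians are -1.61 for transcription factors, -1.83 for stress effectors and -1.72 for other ATF4 or DDIT3 targets, and 0.06 and 0.16 for the other synthesis enzymes and transporters.

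Paralogs can be set side by side without any scaling, since the scaling of the libraries cancels in a difference of log2 ratios. The 11 pairs below were chosen after their values had been seen, which fixed the direction of the differences, so they are given as a description, with 95% counting intervals. Between the serine hydroxymethyltransferases the difference was -1.56 (-1.61 to -1.50), mitochondrial SHMT2 minus cytosolic SHMT1. ALDH1L2 minus cytosolic ALDH1L1 gave -2.13 (-2.54 to -1.71), and MTHFD1L minus cytosolic MTHFD1 gave -1.24 (-1.33 to -1.15). MTHFD2 minus MTHFD2L, its mitochondrial relative, gave -1.42 (-1.58 to -1.26). The paralogs MTHFD1 (-0.09) and MTHFD2L (-0.17) had log2 ratios near 0 with intervals just below it, and ALDH1L1 (201 and 203 counts) had an interval that included 0.

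Transaminases and transporters gave like differences. GPT2 minus GPT was -1.73 (-1.87 to -1.59) and BCAT1 minus mitochondrial BCAT2 was -1.40 (-1.51 to -1.29). The leucine facilitators differed by -1.44 (-1.50 to -1.37), SLC43A1 minus SLC43A2, with SLC43A2 at 1.17 and SLC43A1 at -0.27. For the LAT light chains, SLC7A5 minus SLC7A8, the difference was -1.01 (-1.05 to -0.97), and for the cationic transporters, SLC7A1 minus SLC7A2, it was -0.64 (-0.73 to -0.55), the smallest of the 11. The inducible eIF2 phosphatase cofactor PPP1R15A minus the constitutive PPP1R15B gave -1.06 (-1.23 to -0.90), and ATF3 minus JDP2 gave -2.79 (-2.90 to -2.67). Some of these paralogs were themselves lower, with log2 ratios of -0.75 for PPP1R15B, -0.56 for SLC7A2 and -0.77 for JDP2.

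**Figure D5:**
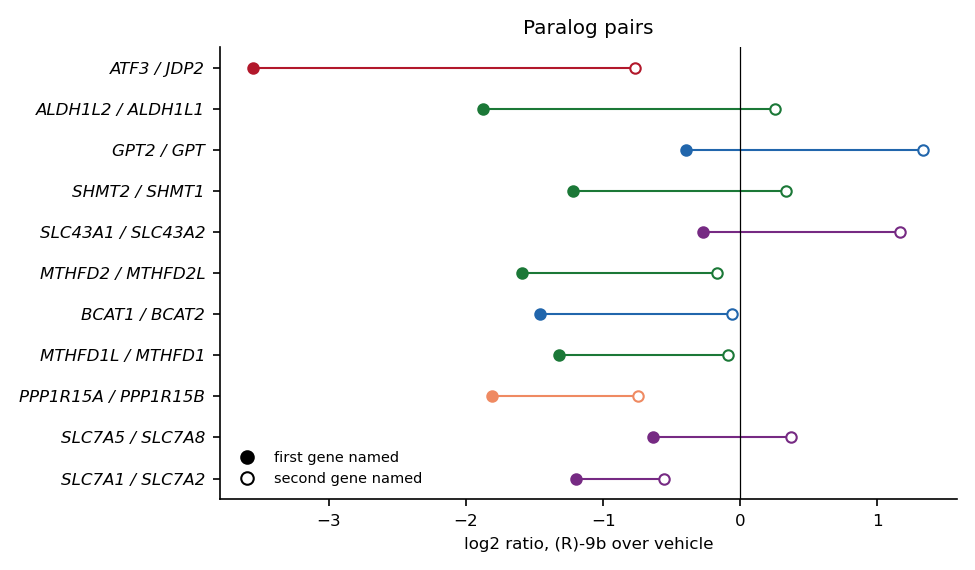
Log2 ratio of (R)-9b over vehicle for 11 pairs of paralogs, the first gene named as a filled circle and its paralog as an open circle, coloured by the role of the first gene and ordered by the difference, with 1 library per condition. The filled circle lies to the left in every pair, by 2.79 for ATF3 and JDP2 while SLC7A1 and SLC7A2, at -1.19 and -0.56, are the closest pair.

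Which transcript carried each gene was read from the deposited transcript estimates. The leading transcript, that with the most estimated counts over both libraries, was protein coding for all 40 genes, and its share of the gene differed between libraries by a median of 4.69 percentage points. The leading transcript had nearly equal shares in both libraries for several genes whose levels differed much, with ATF3-202 at 89.4% in vehicle and 89.5% in (R)-9b, TRIB3-201 at 98.7% and 98.6%, and ATF4-203 at 45.7% and 44.5%. DDIT3-201 had 69.1% and 57.0%. In 4 genes the share differed by at least 20 points. CBS-204 had 74.3% in vehicle and 44.1% in (R)-9b, while CBS-209, annotated as a retained intron, had 5.4% and 31.8%, or 413 and 2160 estimated counts. XPOT-202 had 68.9% and 44.6%, and the retained-intron transcript XPOT-206 had 16.3% and 52.6%, on gene sums of 555 and 387 estimated counts, which are 1.3% and 2.2% of the gene counts. The other two, ALDH1L2-207 (19.7% and 95.2%) and SLC7A1-202 (57.8% and 88.5%), rested on gene sums under 50 estimated counts.

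The transcript table held only part of the reads of some genes. Its estimates summed to a median of 36.2% of the gene count in vehicle and 36.3% in (R)-9b, and to under 10% in vehicle for 6 genes, ALDH1L2, SLC7A1, XPOT, SLC38A1, SLC38A2 and SLC3A2. For SLC7A1 the sums were 36.1 and 35.1 estimated counts against gene counts of 69601 and 25796, and its log2 ratio on the estimates was 0.21 against -1.19 on gene counts. ALDH1L2 likewise had 0.90 on the estimates, from sums of 30.3 and 47.0, against -1.87. SLC3A2 had -0.69 on the estimates and XPOT -0.27. Outside those 6 genes no gene changed its direction, and DDIT3 (-4.47), ATF3 (-3.53), LAMP3 (-5.96) and ATF4 (-1.17) were close to their ratios on gene counts. Processed pseudogenes of ATF4 were counted as well, ATF4P3 with 2697 and 976 counts and ATF4P4 with 1123 and 381, and reads shared with such copies cannot be placed by alignment alone.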

How the data were processed

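RNA sequencing of C4-2B cells was analysed, with 1 vehicle and 1 (R)-9b library assigned from the sample labels. The authors prepared poly-A selected paired-end libraries, aligned reads with STAR to the human genome (hg38, per the labels) and deposited gene counts of uniquely aligned, unambiguous reads. The labels' processing notes name STAR 2.5.1a, featureCounts 1.4.6-p5 and Salmon 0.8.2, and the published methods another STAR version. The strand setting is not given in the sources used here. The authors also deposited the same genes as CPM and as moderated log2 CPM, and transcripts as estimated counts, all used as alternatives only.

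The 40 genes and all lists were chosen with earlier results of these data known. All 40 are named, and from each related list at most 3 genes, those whose intervals were farthest from 0, taking 1 in each direction first. SLC7A11 is named besides, because it is a transporter in the list of targets. Some genes that the rule covers are left out here. Of 60871 lines, 200 repeats were dropped. Counts were scaled by TMM (edgeR 4.0.16, R 4.3.3). Genes whose counts summed to 10 or more were given exact 95% binomial intervals (scipy 1.17.1, with pandas 2.3.3 and numpy 2.4.6, Python 3.11.15), which cover counting error only. They were tested on simulated counts that held counting error alone. That test checks the calculation and cannot show that the intervals hold for these libraries. If both reads of a pair were counted, the intervals are too narrow. PCR copies were not marked by molecular identifiers. Intervals of paralog differences used the normal approximation to counting error. The depths of 65207444 and 57653965 counts make the intervals narrow. Coordinates, exon lengths and overlaps came from GENCODE release 29 (GRCh38), an earlier annotation than the authors', and promoters from RefSeq (GRCh38.p14). Alternatives were scaling by library totals, DESeq2 1.42.0 size factors, upper quartile or TMM without mitochondrial genes, minimums of 1, 50 and, chosen after seeing the data, 500 counts, 5 counts added, halved counts, deposited CPM, moderated log2 CPM, transcript estimates, calls from the ratio alone, and the element with C only. Figures were drawn with matplotlib 3.10.9.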

Additional observations from a re-analysis of the deposited data

How the results depend on the processing

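The count of 25 genes lower beyond 2-fold was 24 with upper-quartile scaling and with halved counts, 21 with transcript estimates and 25 with the other scalings, the other minimums and the ratio alone, and 0 genes were higher beyond 2-fold under each of these. Calls were not made with 5 counts added, deposited CPM or moderated log2 CPM. The median of the 40 genes was -1.30 with library totals, with deposited CPM and with moderated log2 CPM, and -1.12 with transcript estimates. With library totals, deposited CPM and moderated log2 CPM, the median of the synthesis enzymes was -0.72 and that of the transporters -0.91, and with upper-quartile scaling they were -0.63 and -0.81. These shifts follow from the scaling, since library totals move every ratio by -0.06 and the upper quartile by 0.036 on the log2 scale. With transcript estimates the median was -1.19 for the one-carbon enzymes and -0.64 for the transporters, the log2 ratio of ALDH1L2 was 0.90 and that of SLC7A1 was 0.21, and the cause was not tested beyond the small sums given above. Promoters with the element were 9 with C only, against 14. Of 480 single-gene values under alternatives, 478 kept their sign, but most of these could not have changed it. The minimums leave each ratio as it was. The scalings shift ratios by less than the distance from 0 of any of the 40 genes, the smallest being 0.11 for ALDH18A1. Deposited CPM and moderated log2 CPM nearly repeat the library totals. The 2 reversed values, of ALDH1L2 and SLC7A1, were both on transcript estimates. No paired analysis was possible because there is 1 library per condition, and for the same reason no library could be left out. Counting error is the only error that the depth limits here, and spread between cultures is unknown.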

Other observations

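Charging of tRNA, a further branch of the ATF4 programme beside the exporter XPOT, was examined as the complete families of aminoacyl-tRNA synthetases, a list added after the other values had been seen. The 21 cytosolic synthetases had a median log2 ratio of -0.47 (range -1.37 to 0.30) and a summed level of 6962 CPM (vehicle) and 4532 CPM ((R)-9b). Of their counting intervals, 15 lay below 0, 4 above and 2 included 0, and 4 lay beyond a 2-fold decrease, against 31.1% below 0, 29.8% above and 3.44% beyond a 2-fold decrease over all genes. Those 4 were WARS1 (25774 and 8458 counts, -1.37), SARS1 (34002 and 12011 counts, -1.26), GARS1 (36538 and 13324 counts, -1.22) and AARS1 (60697 and 23584 counts, -1.13), which charge tRNA with tryptophan, serine, glycine and alanine. The highest ratio was that of HARS1, the histidine enzyme, with 6219 and 6497 counts (0.30).

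The 17 mitochondrial synthetases, encoded by separate nuclear genes, had a median log2 ratio of 0.05 and summed to 879 CPM in both libraries, with 6 intervals below 0, 7 above and none beyond 2-fold, to be read against the same shares of all genes. The difference between the families was not tested.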
